A study of Homo sapiens with 8 samples.

Results

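The genes described here are 44 genes of mitosis and the spindle, chosen by name from textbook roles in cell division, among 69215 genes counted in G401 cells. G401 is an established line of rhabdoid kidney tumor cells. It has lost SMARCB1, which belongs to the core of the chromatin remodelling complexes called mSWI/SNF. All 4 groups were G401 cells with an inducible Tet-On construct, and doxycycline (Dox) turned on SMARCB1 in the SMARCB1 line and GFP in the control line. SMARCB1 Dox and GFP Dox received 0.1 µg/ml Dox for 12 h, SMARCB1 DMSO and GFP DMSO the solvent dimethylsulfoxide for the same time, and each group had 2 libraries. The DMSO groups therefore carried the same inducible constructs as the Dox groups. Whether each line was a single clone was not given in the sources used here, and several plates were pooled for each condition. Nothing in the labels says that the replicates were separate cultures, so p-values measure the spread between these libraries, which may be technical.

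To divide, a cell activates cyclin-dependent kinase 1 with its A- and B-type cyclins, builds a bipolar spindle from microtubules and attaches each chromosome to it through the kinetochore. The spindle checkpoint delays anaphase until all chromosomes are attached, after which the anaphase-promoting complex marks cyclin B and securin for destruction, and cytokinesis separates the daughter cells. The mRNAs of these proteins accumulate in G2 and mitosis and are low in resting cells, and many of their genes share a pair of promoter elements, the cell cycle genes homology region (CHR) and the CCAAT box. Because RNA was taken from whole cultures, fewer cells in mitosis and less RNA per dividing cell cannot be told apart.

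The promoters of 5 of these genes are shown because PLK1, CDC25B and ASPM were the 3 members called upon SMARCB1 induction, CCNB1 had the highest level per length, and CDC20 activates the anaphase-promoting complex. Each sequence is the 250 bases before a RefSeq gene start (GRCh38.p14), written 5′ to 3′ on the strand of the gene. Capitals mark the CHR letters TTTGAA or TTCGAA and the CCAAT letters, on either strand, where the 2 motifs may share a base. The PLK1 window lies at chr16:23678639-23678888 on the plus strand, the CDC25B window at chr20:3796060-3796309 on the plus strand and the ASPM window at chr1:197146670-197146919 on the minus strand. The CCNB1 window lies at chr5:69166900-69167149 and the CDC20 window at chr1:43358731-43358980, both on the plus strand. CDC25B had 4 such windows, and the one shown is the one that holds both motifs.
PLK1: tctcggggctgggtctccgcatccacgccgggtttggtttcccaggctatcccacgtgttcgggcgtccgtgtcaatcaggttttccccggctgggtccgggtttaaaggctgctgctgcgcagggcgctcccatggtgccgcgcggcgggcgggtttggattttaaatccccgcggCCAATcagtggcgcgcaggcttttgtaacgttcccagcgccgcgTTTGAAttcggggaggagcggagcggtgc
CDC25B: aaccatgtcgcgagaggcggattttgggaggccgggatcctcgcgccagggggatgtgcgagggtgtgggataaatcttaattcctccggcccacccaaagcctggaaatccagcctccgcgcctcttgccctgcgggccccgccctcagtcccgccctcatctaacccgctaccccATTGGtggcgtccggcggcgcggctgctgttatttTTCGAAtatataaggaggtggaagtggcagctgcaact
ASPM: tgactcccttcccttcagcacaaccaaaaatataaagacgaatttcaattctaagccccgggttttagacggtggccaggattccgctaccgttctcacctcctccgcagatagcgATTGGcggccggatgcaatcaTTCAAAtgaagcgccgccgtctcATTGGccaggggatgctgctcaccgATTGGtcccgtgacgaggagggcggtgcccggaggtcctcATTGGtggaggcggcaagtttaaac
CCNB1: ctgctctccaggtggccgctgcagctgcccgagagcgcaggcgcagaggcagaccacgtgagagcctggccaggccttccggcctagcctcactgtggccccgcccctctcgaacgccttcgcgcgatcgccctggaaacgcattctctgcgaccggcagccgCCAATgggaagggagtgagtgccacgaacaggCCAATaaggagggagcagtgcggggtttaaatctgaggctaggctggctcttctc
CDC20: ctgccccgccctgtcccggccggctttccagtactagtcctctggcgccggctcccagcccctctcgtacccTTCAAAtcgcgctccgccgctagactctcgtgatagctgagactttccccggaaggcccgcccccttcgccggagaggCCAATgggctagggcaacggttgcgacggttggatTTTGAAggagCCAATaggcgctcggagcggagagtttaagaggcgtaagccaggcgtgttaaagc

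The RefSeq windows used here numbered 47 for 37 of the 44 genes, and AURKA, FOXM1, BUB3, TTK, UBE2C, BIRC5 and TPX2 were not analysed here. CHR letters stood in 24 of the 47 windows (51.1%), compared with 14.3% of all 35114 windows and 26.4% of the 148 windows of 123 other mitosis genes. CCAAT letters stood in 36 windows (76.6%), compared with 32% of all windows and 46.6% of those of the other mitosis genes. Both motifs occurred together in 21 windows (44.7%), compared with 5.05% of all windows and 16.2% of those of the other mitosis genes. At least 2 CCAAT boxes stood in 22 windows (46.8%), compared with 9.53% of all windows and 21.6% of those of the other mitosis genes. The windows of PLK1, ASPM and CDC20 and the CDC25B window shown held both motifs, whereas the CCNB1 window held 2 CCAAT boxes and no CHR letters. These windows end at the gene start. With bases just after the start included, CHR letters stood in 32 of the 47 windows of members (68.1%). The share was then 16.4% over all windows and 39.2% over those of the other mitosis genes. A match describes the letters only and does not show that a factor binds there.

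Counts assigned to genes summed to 29632090 to 37597477 per library. Mitochondrially encoded genes took 18.9% to 27.9% of them, most in SMARCB1 DMSO replicate 1. SMARCB1, on the plus strand of chromosome 22 (positions 23786931 to 23838009, GRCh38), had 30474 and 29383 counts in SMARCB1 Dox, 10 and 21 in SMARCB1 DMSO and 0 in all 4 GFP libraries, where 3 counts would be 0.0782 to 0.0974 CPM (counts scaled by TMM to a common library size). Among markers of other cells, PTPRC, CD3E, CD14, PECAM1, CDH5, VWF and HBA1 had 0 to 19 counts in any library, and HBB had 84 to 121.

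All 44 genes passed the expression filter, and together they took 0.374% to 0.467% of the counts of a library. Per exon length, their median level was 17.1 RPKM (reads per kilobase of exon, scaled to library size), compared with 2.6 RPKM over 15924 tested genes of known exon length, and 42 of the 44 lay above that median. Exon length was that of all annotated exons of a gene merged, which can exceed the length of the mRNA expressed. Rankings between genes therefore depend on the annotation. CCNB1, the B-type cyclin that brings CDK1 into mitosis, had the highest level with a mean of 111 RPKM and a range of 98.8 to 125 over the 8 libraries. TPX2, which activates Aurora A on the spindle, followed with 77.4 RPKM (70.3 to 84), and UBE2C, the ubiquitin-conjugating enzyme of the anaphase-promoting complex, with 75.7 RPKM (71.6 to 80.8). CCNB1 thus lay above both in every library, whereas the ranges of TPX2 and UBE2C overlapped. CCNA2, cyclin A2, reached 52.6 RPKM and CDC20 45.5 RPKM, with overlapping ranges of 46.6 to 55.7 and 42.5 to 51.6.

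Partners within one complex were at unequal levels per merged exon length. Among the 4 chromosomal passenger genes, CDCA8 (borealin) had a mean of 33.8 RPKM, AURKB (the kinase of the complex) 19 RPKM, BIRC5 (survivin) 14.8 RPKM and INCENP (its scaffold) 9.6 RPKM. Of the NDC80 complex, which holds microtubules at the kinetochore, NDC80 stood at 11.8 RPKM, NUF2 at 6.53 and SPC25 at 5.27, and the remaining subunit, SPC24, which is not among the 44 genes, at 9.35. The ranges of NUF2 (6.09 to 6.94) and SPC25 (3.63 to 6.99) overlapped, and both lay below that of NDC80 (10.7 to 13). CDK1 itself, with 12.8 RPKM, lay below each of its cyclins CCNA2, CCNB1 and CCNB2 (25.1 RPKM) in every library.

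The members lowest per length were PRC1, which bundles the central spindle (1.06 RPKM), and NUSAP1, a microtubule-binding protein (0.345 RPKM). NUSAP1 shared 81.4% of its exon bases with another annotated gene on the same strand and had 30 to 53 counts. PRC1 shared 57.6% of its exon bases with a second same-strand gene, which had 97 to 171 counts against 138 to 238 for PRC1. Reads within such shared bases were not assigned to either gene, so the values of PRC1 and NUSAP1 are uncertain. Smaller overlaps of up to 15.9% of exon bases concerned FOXM1, PLK1, CDCA3, CCNA2, CDC25C, CENPA and BUB1B.

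**Figure D1:**
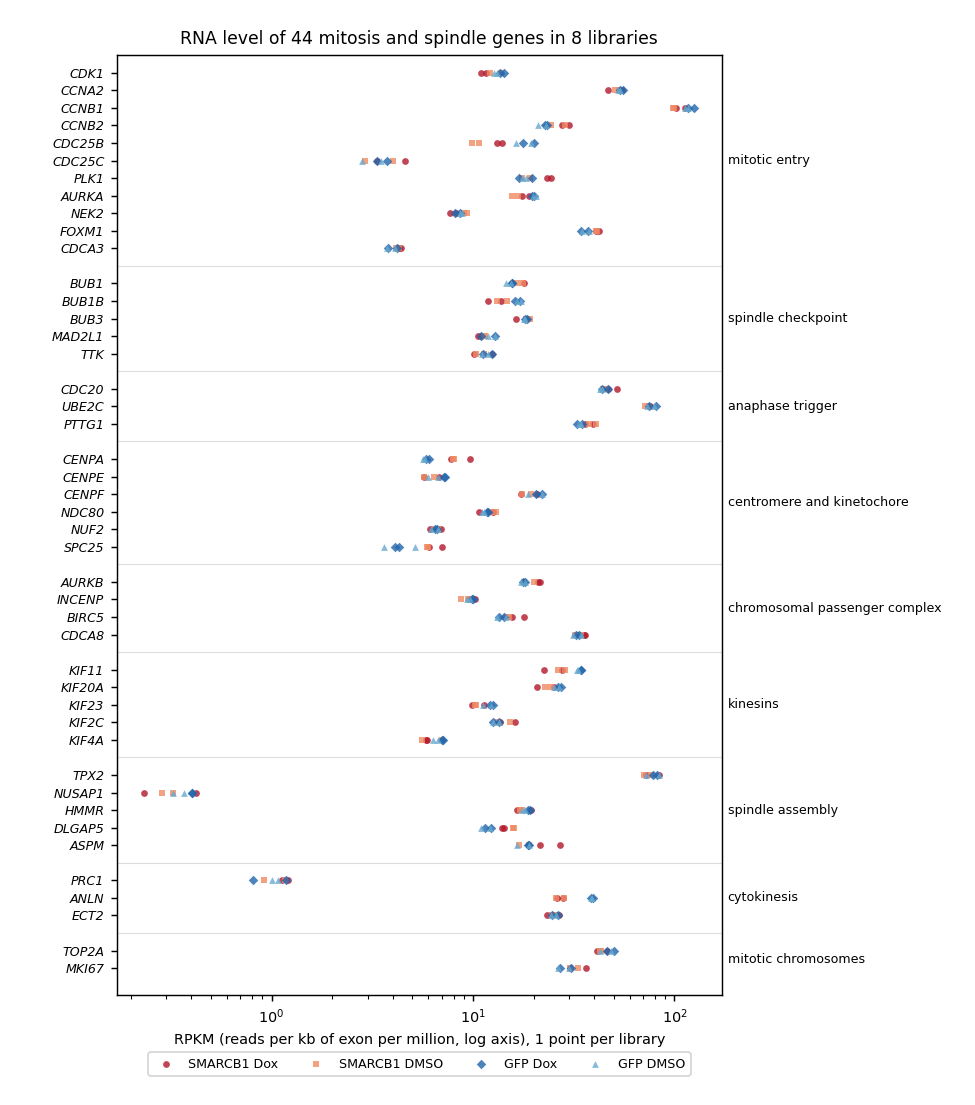
Level of each of the 44 genes per exon length (RPKM, log axis) in the 8 libraries, 1 point per library, with genes grouped by role. CCNB1 lies highest at 98.8 to 125 RPKM, and PRC1 and NUSAP1 lie lowest at 1.06 and 0.345 RPKM on average.

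The first comparison asked which mitosis genes responded to SMARCB1 within 12 h, as Dox against DMSO in the SMARCB1 line. PLK1, CDC25B and ASPM rose by 1.3-fold, 1.32-fold and 1.35-fold, and no member was called lower. A gene was called at an adjusted p under 0.05 in edgeR's quasi-likelihood test, with Benjamini-Hochberg adjustment over 15931 genes. The 3 called members are 6.82% of the 44, while 14% of all genes tested were called, 8.33% higher and 5.69% lower. With an unadjusted p under 0.05 there were 5 of the 44 members, compared with 4148 of all 15931 genes. The 5 members were the 3 called and, below 0, CDK1 and NEK2. On the log2 scale 29 members were above 0 and 15 below, while 49.2% of all genes were above 0. The median log2 fold change was 0.045 over the members and -0.004 over all genes. It was -0.06 over the members without SMARCB1 Dox replicate 2, so the sign of the median rests on that library.

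PLK1 (chr16:23677656-23690367, plus strand), the kinase that promotes mitotic entry and spindle assembly, had 116 and 111 CPM in SMARCB1 Dox and 83.8 and 90.8 in SMARCB1 DMSO. In the GFP line it had 81.1 and 93.3 CPM with Dox and 83.2 and 87.5 with DMSO. Both SMARCB1 Dox libraries lay above the other 6. The group means were 114 ± 3.5 and 87.3 ± 4.99 CPM (SD, n = 2), and the log2 fold change in the SMARCB1 line was 0.38 (95% interval 0.20 to 0.56, edgeR adjusted p = 0.00369).

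CDC25B (chr20:3786772-3806121, plus strand), a phosphatase that activates CDK1 at the onset of mitosis, had 51.4 and 54.2 CPM in SMARCB1 Dox and 38.4 and 41.7 in SMARCB1 DMSO. GFP Dox had 69.4 and 78.1 CPM and GFP DMSO 64.2 and 76. The SMARCB1 Dox libraries lay above both SMARCB1 DMSO libraries and below all 4 GFP libraries. On the log2 scale the difference within the SMARCB1 line was 0.40 (95% interval 0.20 to 0.60, edgeR adjusted p = 0.00649). Without SMARCB1 DMSO replicate 1, the library with the highest mitochondrial share, it was 0.34 and the adjusted p was 0.0642. With library totals that leave out mitochondrial genes, PLK1, CDC25B and ASPM were called as well.

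ASPM (chr1:197084121-197146694, minus strand), which organises spindle poles and is known for its role in the division of neural progenitors, had 259 and 325 CPM in SMARCB1 Dox and 203 and 228 in SMARCB1 DMSO. With Dox the GFP libraries stood at 224 and 226 CPM, and with DMSO at 198 and 228. Its SMARCB1 Dox libraries were the highest 2 of the 8 (mean 292 ± 47.1 CPM, SD, n = 2), and they lay farther apart than the libraries of any other group. The log2 fold change was 0.44 (95% interval 0.23 to 0.64, edgeR adjusted p = 0.00465), and it was 0.26 (adjusted p = 0.116) without SMARCB1 Dox replicate 2 and 0.35 (adjusted p = 0.0542) without SMARCB1 DMSO replicate 1.

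The other mitotic entry genes were not called. CDK1 had 43.1 and 45.5 CPM in SMARCB1 Dox and 53.9 and 47.2 in SMARCB1 DMSO, and its GFP libraries had 55.5 and 53.2 with Dox and 49.7 and 51.2 with DMSO. Its SMARCB1 Dox libraries were the lowest of the 8, with a log2 difference of -0.19 in the SMARCB1 line (95% interval -0.37 to -0.01, adjusted p = 0.168 in edgeR). NEK2, a centrosomal kinase, also had both SMARCB1 Dox libraries below both SMARCB1 DMSO libraries, with a log2 difference of -0.21 (95% interval -0.41 to -0.02, adjusted p = 0.146 in edgeR). CCNB1 had 249 and 275 CPM in SMARCB1 Dox, 240 and 241 in SMARCB1 DMSO, 303 and 285 in GFP Dox and 275 and 285 in GFP DMSO. The CCNB1 libraries of the SMARCB1 line did not overlap between treatments, but the 95% interval of the log2 difference (-0.04 to 0.29) included 0. FOXM1, a transcription factor of many G2 and M genes, stood at 201 to 206 CPM in the 4 libraries of the SMARCB1 line, and its interval was -0.15 to 0.18.

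Among the 44 genes, none of the 5 of the spindle checkpoint, the 3 of the anaphase trigger, the 6 of the centromere and kinetochore, the 4 of the passenger complex, the 5 kinesins or the 3 of cytokinesis was called, against 14% of all genes. In the checkpoint, 4 of 5 genes were below 0 on the log2 scale, with a median of -0.088. BUB1B, the checkpoint kinase BubR1, had 52.9 and 61.1 CPM in SMARCB1 Dox, 58.8 and 65.8 in SMARCB1 DMSO, 71.9 and 76.8 in GFP Dox and 74.3 and 77.5 in GFP DMSO. BUB3, its partner at the kinetochore, had 134 and 151 CPM in SMARCB1 Dox, 150 and 156 in SMARCB1 DMSO, 152 and 148 in GFP Dox and 146 and 148 in GFP DMSO. For both genes the treatments overlapped within the SMARCB1 line.

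Among the anaphase genes, CDC20 had 104 and 94.1 CPM in SMARCB1 Dox, 89.2 and 90.8 in SMARCB1 DMSO, 88.2 and 93.6 in GFP Dox and 87.7 and 85.6 in GFP DMSO. Its SMARCB1 Dox libraries were the highest 2, with a log2 difference of 0.14 in the SMARCB1 line and an interval of -0.03 to 0.30. UBE2C had 97.8 and 96.1 CPM in SMARCB1 Dox, 92.1 and 96.4 in SMARCB1 DMSO, 104 and 96.4 in GFP Dox and 102 and 94.4 in GFP DMSO, and no pair of groups that differed in Dox alone was separated.

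At the kinetochore, CENPF, a large outer kinetochore protein, had 217 and 258 CPM in SMARCB1 Dox, 219 and 242 in SMARCB1 DMSO, 256 and 273 in GFP Dox and 234 and 275 in GFP DMSO. NDC80 had 37.9 and 44.7 CPM in SMARCB1 Dox, 43.1 and 46.3 in SMARCB1 DMSO, 41.7 and 41.9 in GFP Dox and 39.4 and 40.5 in GFP DMSO. In the SMARCB1 line both overlapped between treatments. The 4 passenger genes all had log2 differences above 0, from 0.10 to 0.18, and for each of them both SMARCB1 Dox libraries lay above both SMARCB1 DMSO libraries, as they did for 25.9% of all genes. Their lowest adjusted p was 0.205 in edgeR, so none was called. AURKB had 48 and 47.1 CPM in SMARCB1 Dox, 40.1 and 45.1 in SMARCB1 DMSO, 39.9 and 40.9 in GFP Dox and 40.8 and 38.7 in GFP DMSO. CDCA8 had 85.1 and 86.7 CPM in SMARCB1 Dox, 77.4 and 83 in SMARCB1 DMSO, 81.2 and 78.5 in GFP Dox and 82.3 and 75.7 in GFP DMSO. For both genes the SMARCB1 Dox libraries were the highest of the 8.

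KIF11, the motor that pushes spindle poles apart, had 120 and 148 CPM in SMARCB1 Dox, 140 and 153 in SMARCB1 DMSO, 183 and 184 in GFP Dox and 175 and 177 in GFP DMSO. TPX2 had 260 and 303 CPM in SMARCB1 Dox, 253 and 276 in SMARCB1 DMSO, 281 and 294 in GFP Dox and 262 and 302 in GFP DMSO. Neither was separated by Dox in the SMARCB1 line. TOP2A, the topoisomerase that untangles chromosomes, had 264 and 296 CPM in SMARCB1 Dox, 274 and 273 in SMARCB1 DMSO, 294 and 320 in GFP Dox and 272 and 307 in GFP DMSO. PRC1, whose counts are uncertain, had 6.24 and 6.67 CPM in SMARCB1 Dox, 5.08 and 6.43 in SMARCB1 DMSO, 4.48 and 6.5 in GFP Dox and 5.95 and 5.58 in GFP DMSO. These also overlapped between treatments.

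The size that a change could still have was read from the intervals. For 41 of the 44 genes the 95% interval of the SMARCB1 Dox effect lay within 1.5-fold in either direction, the exceptions being ASPM, CDC25B and NUSAP1. Such an interval was found for 55.3% of all genes tested. The median absolute log2 fold change was 0.1 over the members and 0.19 over all genes. Levels differed between these sets, with a median of 17.1 RPKM over the members and 2.6 RPKM over tested genes. Genes of similar level were not compared, so the part of level in these contrasts was not tested. The libraries of SMARCB1 Dox and SMARCB1 DMSO did not overlap for 15 members, 11 higher and 4 lower (34.1%), compared with 51.2% of all genes.

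**Figure D2:**
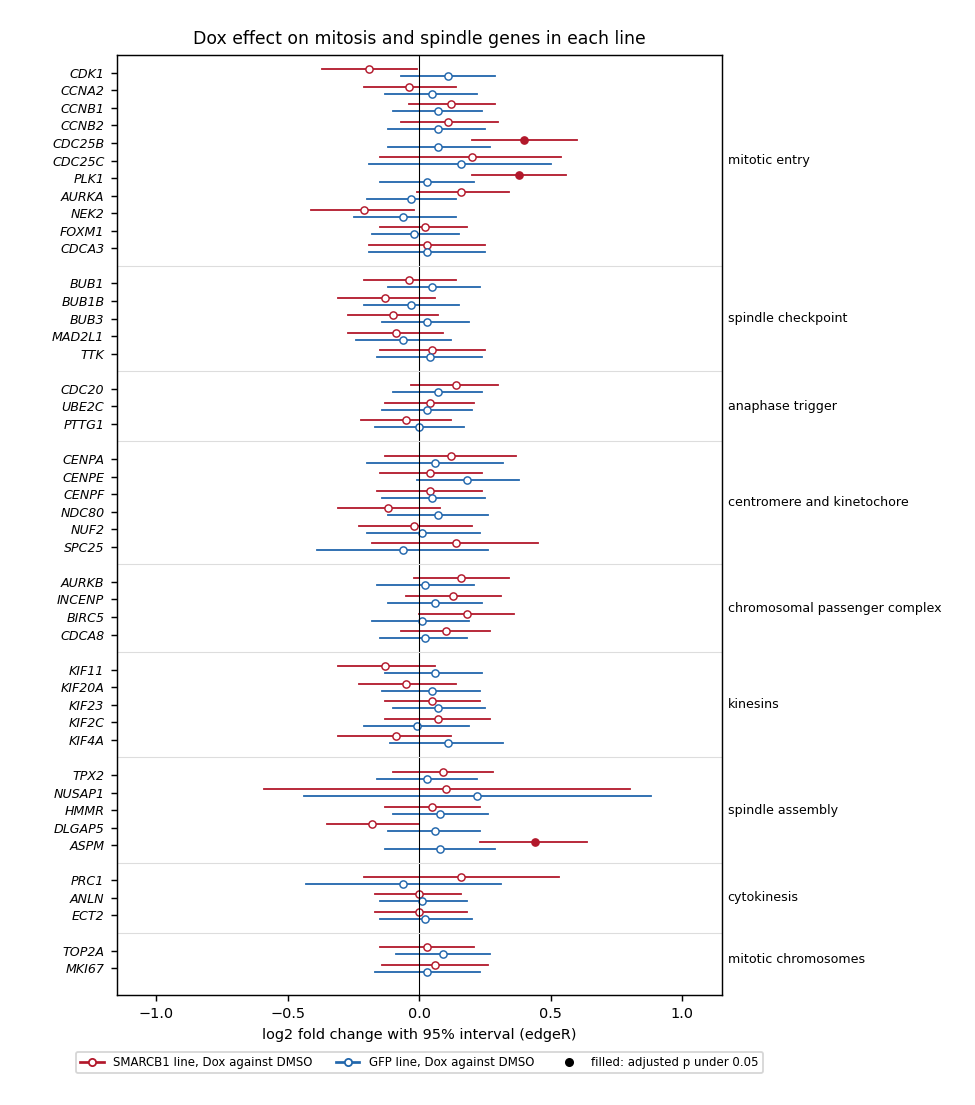
Log2 fold change of Dox against DMSO for each gene in the SMARCB1 line (red) and the GFP line (blue), with 95% intervals from edgeR, where filled symbols mark an adjusted p under 0.05. The 3 filled symbols are PLK1 (0.38), CDC25B (0.40) and ASPM (0.44) in the SMARCB1 line.

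The GFP line controlled for Dox itself. No member was called there, edgeR also called 0% of all genes (266 genes had an unadjusted p under 0.05), and none of the 44 had an unadjusted p under 0.05. DESeq2 called 0 genes as well. Log2 differences of the members ran from -0.06 to 0.22 with a median of 0.045, compared with 0.004 over all genes. Of the 44 members 35 were above 0, compared with 51.9% of all genes. GFP Dox and GFP DMSO did not overlap for 14 members, 13 higher and 1 lower (31.8%), compared with 26.8% of all genes. Intervals lay within 1.5-fold for 43 members, all but NUSAP1, compared with 66.4% of all genes.

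The Dox effects of the lines were then compared directly. No member was called for the difference in edgeR or DESeq2, while 4.71% of all genes were called in edgeR, 3.07% higher and 1.64% lower in the SMARCB1 line. With an unadjusted p under 0.05 there were 4 members, compared with 2577 of all 15931 genes. The median difference was -0.004 over the members and -0.007 over all genes. Of the members 22 were above 0 and 22 below, while 49.1% of all genes were above 0. On the log2 scale the difference was 0.35 for PLK1 (adjusted p = 0.114 in edgeR), 0.32 for CDC25B (0.208) and 0.35 for ASPM (0.192), and it was -0.30 for CDK1 (95% interval -0.55 to -0.04, adjusted p = 0.213). In this fit the 3 called Dox effects were not shown to differ from those of the GFP line. Without SMARCB1 Dox replicate 1, ASPM passed alone (0.51, adjusted p = 0.0398).

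**Figure D3:**
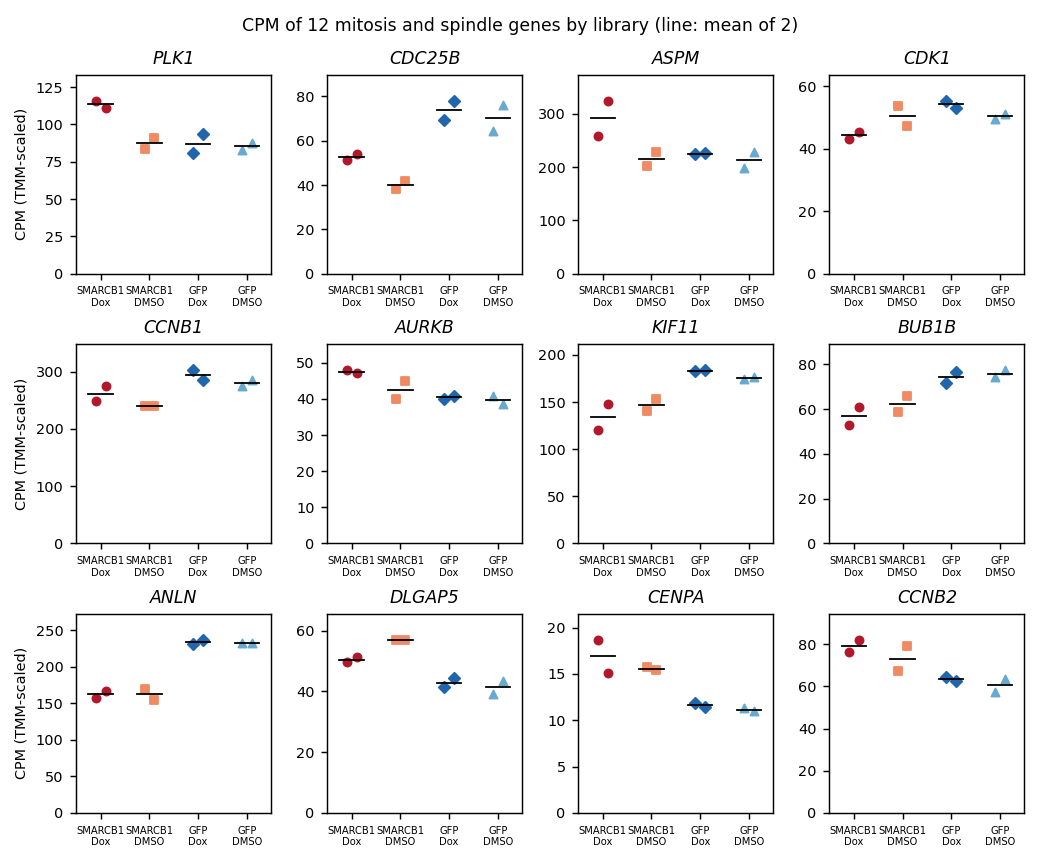
CPM of 12 of the genes in each library (points, 2 per group) with the group mean (line) and axes from 0. PLK1 and ASPM stand highest in SMARCB1 Dox, whereas CDC25B, KIF11, BUB1B and ANLN lie lower in all 4 libraries of the SMARCB1 line than in the GFP line.

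Within 3 of the 4 groups, most members were higher in the same replicate. In SMARCB1 Dox 33 of the 44 genes were higher in replicate 2 than in replicate 1, with a median log2 difference of 0.15, and in SMARCB1 DMSO it was also 33, with a median of 0.07. In GFP DMSO 30 genes were higher in replicate 2 and in GFP Dox 22, while 49.2% to 50.2% of all genes were. Relative to each gene's mean over the 8 libraries, the median of the members was lowest in SMARCB1 Dox replicate 1 (-0.088) and highest in SMARCB1 Dox replicate 2 (0.087). With a replicate block in the fit, the SMARCB1 Dox effects of PLK1, CDC25B and ASPM were 0.38, 0.4 and 0.43 on the log2 scale. Such a block takes the shift of a gene between replicates as equal in all groups. The part of this shift in the called Dox effects was not tested further.

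**Figure D4:**
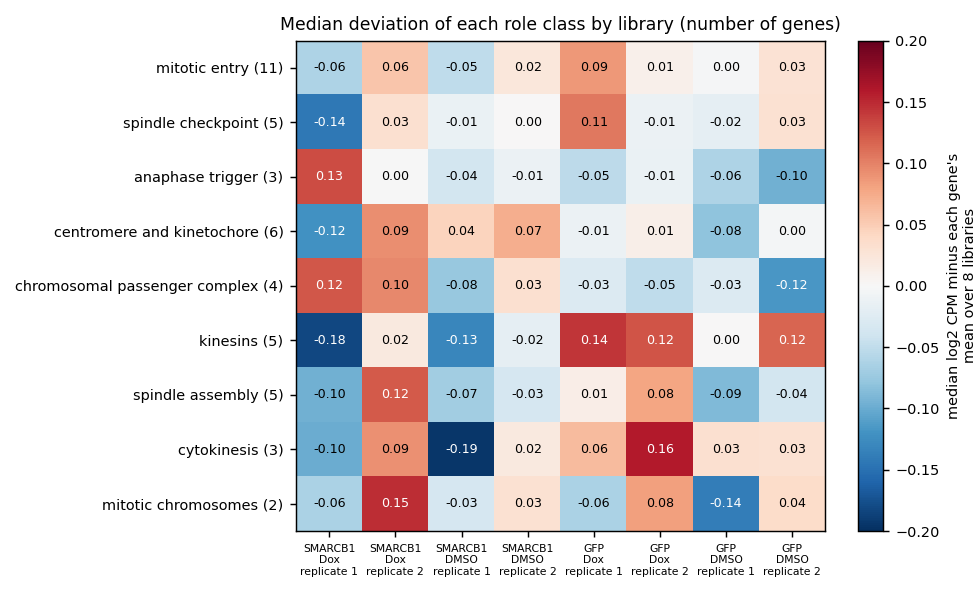
Median log2 CPM of each role class relative to each gene's mean over the 8 libraries, 1 column per library, with the number of genes in parentheses. The passenger complex is above 0 in both SMARCB1 Dox libraries (0.124 and 0.096), whereas the kinesins are at -0.182 and 0.019 there.

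The lines were compared without Dox, as SMARCB1 DMSO against GFP DMSO. In the SMARCB1 line 6 members were lower (CDC25B, ANLN, AURKA, BUB1B, KIF11 and CCNB1) and 4 were higher (CENPA, DLGAP5, SPC25 and CCNB2). These 10 are 22.7% of the members, compared with 32% of all genes, of which 16.3% were higher and 15.7% lower. The median log2 difference was 0.002 over the members and 0.015 over all genes. With library totals in place of TMM the median over all genes moved to -0.101 and that of the members to -0.112. That scaling called 11 members, 2 higher and 9 lower, and 5389 of all genes, 1732 higher and 3657 lower. DESeq2 called 9 members and 4617 of all genes.

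CDC25B showed the largest difference, with 38.4 and 41.7 CPM in SMARCB1 DMSO against 64.2 and 76 in GFP DMSO. It was 1.75-fold lower in the SMARCB1 line (log2 -0.81, SE 0.0948, edgeR adjusted p = 6.16e-07). ANLN, the actin-binding scaffold of the cytokinetic ring, had 169 and 155 CPM in SMARCB1 DMSO and 232 and 233 in GFP DMSO, and with Dox 157 and 167 in the SMARCB1 line and 231 and 237 in the GFP line. It was 1.43-fold lower (log2 -0.52, edgeR adjusted p = 2.24e-05) and was called under all 12 alternatives run. ECT2, another cytokinesis gene, which activates RhoA, had 135 and 140 CPM in SMARCB1 DMSO and 134 and 141 in GFP DMSO, with an interval of -0.17 to 0.17.

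AURKA, the centrosomal Aurora kinase, had 49 and 46.1 CPM in SMARCB1 DMSO, 60.4 and 58.4 in GFP DMSO, 55.3 and 51.1 in SMARCB1 Dox and 58.8 and 57.8 in GFP Dox. Its log2 difference between the DMSO groups was -0.32 (edgeR adjusted p = 0.00466). BUB1B differed by -0.28 (adjusted p = 0.0175), KIF11 by -0.27 (0.0257) and CCNB1 by -0.22 (0.0417) in edgeR. In each of these 4 genes both SMARCB1 DMSO libraries lay below both GFP DMSO libraries. Leaving out GFP DMSO replicate 1 removed the calls of AURKA (adjusted p = 0.0507), KIF11 (0.0833) and CCNB1 (0.102). BUB1B and KIF11 were not called without SMARCB1 DMSO replicate 1 (0.162 for both) or GFP DMSO replicate 2 (0.12 and 0.113), and CCNB1 was lost without each of the 4 DMSO libraries in turn.

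CENPA, the histone variant that marks centromeres, had 15.7 and 15.4 CPM in SMARCB1 DMSO, 11.3 and 11 in GFP DMSO, 18.7 and 15.1 in SMARCB1 Dox and 11.9 and 11.4 in GFP Dox. It was 1.4-fold higher in the SMARCB1 line (log2 0.48, edgeR adjusted p = 0.00476). DLGAP5, a microtubule-stabilising spindle protein, had 56.9 and 57.1 CPM in SMARCB1 DMSO, 39.3 and 43.4 in GFP DMSO, 49.8 and 51.2 in SMARCB1 Dox and 41.5 and 44.4 in GFP Dox. It was 1.38-fold higher (edgeR adjusted p = 0.000192). In both genes all 4 libraries of the SMARCB1 line lay above all 4 of the GFP line.

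SPC25 had 11 and 10.8 CPM in SMARCB1 DMSO, 9.48 and 6.64 in GFP DMSO, 11.1 and 12.8 in SMARCB1 Dox and 7.83 and 7.54 in GFP Dox. Its log2 difference of 0.44 (edgeR adjusted p = 0.0342) was called under only 6 of 12 alternatives. The difference was 0.19 without GFP DMSO replicate 2 and was not called by DESeq2 (adjusted p = 0.0605). CCNB2 had 67.2 and 79.1 CPM in SMARCB1 DMSO, 57.5 and 63.6 in GFP DMSO, 76.2 and 82.2 in SMARCB1 Dox and 64.4 and 62.4 in GFP Dox. It was higher by 0.27 on the log2 scale (edgeR adjusted p = 0.0242), while the other B-type cyclin, CCNB1, was lower. The CCNB2 difference was 0.16 with library totals, 0.15 (adjusted p = 0.313) without SMARCB1 DMSO replicate 2 and 0.20 (adjusted p = 0.231) without GFP DMSO replicate 1, and it was not called in any of these.

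The Dox libraries give a second look at the lines, although SMARCB1 was expressed in SMARCB1 Dox. They did not enter the group means of that comparison, but they shared its filter, scaling and estimate of the spread. For all 10 called members SMARCB1 Dox and GFP Dox did not overlap, and they differed in the same direction as the DMSO groups. This held for 86.8% of the 5105 genes called between the DMSO groups. In the DMSO groups themselves the libraries did not overlap for 25 members, 14 higher and 11 lower (56.8%), compared with 64.7% of all genes.

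**Figure D5:**
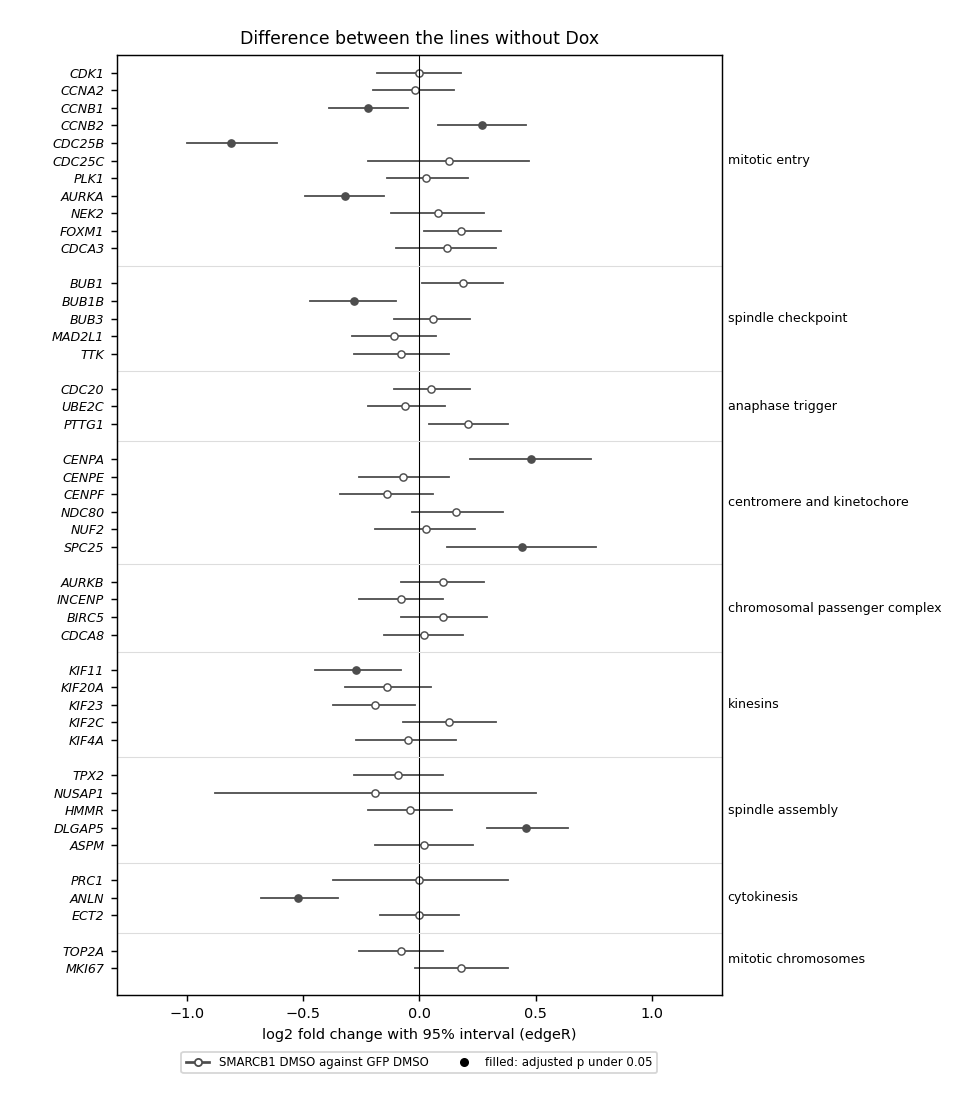
Log2 difference between SMARCB1 DMSO and GFP DMSO for each gene with its 95% interval from edgeR, where filled symbols mark an adjusted p under 0.05. CDC25B (-0.81) and ANLN (-0.52) lie farthest below 0, and CENPA (0.48), DLGAP5 (0.46) and SPC25 (0.44) farthest above.

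A further 123 genes of mitosis, outside the 44, were counted in the same fit. In the SMARCB1 line 7 were called for Dox against DMSO, 3 higher and 4 lower, which is 5.69% of the list against 14% of all genes. The higher ones were CENPT, which links centromere to kinetochore (log2 0.52), TACC3, which stabilises spindle fibres (0.35), and MAD2L2 (0.34), a relative of MAD2 that also acts in DNA repair. The lower ones were NEDD1, which brings gamma-tubulin to the spindle (-0.50), SKA3, a subunit of the SKA complex at the kinetochore (-0.48), CENPP, a centromere protein (-0.44), and PBK, a mitotic kinase (-0.27). PBK was called under 5 of 12 alternatives and was -0.16 (adjusted p = 0.387) without SMARCB1 Dox replicate 1. CENPP and MAD2L2 were called under 9 of 12, CENPT under 11, and SKA3, NEDD1 and TACC3 under all 12. The called genes came from the kinetochore and centromere (3 of 27), the checkpoint (1 of 8), the spindle and centrosome (2 of 24) and mitotic entry (1 of 15), and 0 of 17 were called in the anaphase-promoting complex, 0 of 12 in cohesin and separase, 0 of 8 in condensin, 0 of 8 among other kinesins and 0 of 4 in cytokinesis. Without Dox, 21 of the 123 (17.1%) were called between the lines, against 32% of all genes, 10 higher and 11 lower in the SMARCB1 line.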

How the data were processed

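RNA of 8 G401 libraries was analysed. The authors aligned reads to hg38 with STAR and deposited unnormalised HTSeq counts for each gene (exons, intersection-strict mode, GENCODE v42). Tool versions and the strand option were not given in the sources used here, so counts of antisense and overlapping genes are uncertain. The labels name a ribosome profiling kit and the methods a directional RNA kit. The 5 entries that name no gene (27% to 29.3% of reads) were left out. Symbols and exon lengths came from GENCODE v44 (62672 of 69215 identifiers matched).

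Counts were fitted in edgeR (4.0.16, R 4.3.3) with its default filter (15931 genes), TMM scaling and 1 mean per group over all 8 libraries. The threshold was an adjusted p (Benjamini-Hochberg, per comparison) of 0.05. Standard errors and 95% intervals were derived from the F statistic. Floors of 3 counts cover counting error only. Alternatives were DESeq2 (1.42.0), which the study used, other scalings, no filter, fewer libraries, a replicate block and GC correction. Steps were tested on simulated data.

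The members and lists were chosen with earlier results of these data known. Values per library were given for members called upon SMARCB1 induction, the 8 called members of largest difference between the lines, the member of highest level in each role, and CCNB1, CDK1, CDC20, AURKB, NDC80, BUB1B, KIF11 and PRC1. Of the other mitosis genes, up to 5 called per direction were named. NEK2, FOXM1, ECT2 and the complex partners were named after their values were seen. A marker of other cells is not reported here.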

Additional observations from a re-analysis of the deposited data

Results flagged for a closer look

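The Dox effect was called as different between the lines for 2 of the 123 genes of the longer mitosis list (1.63%), against 4.71% of all genes, and for none of the 44 members. SKA3 had 87.8 and 89.3 CPM in SMARCB1 Dox, 127 and 121 in SMARCB1 DMSO, 105 and 94.2 in GFP Dox and 102 and 98 in GFP DMSO. On the log2 scale Dox and DMSO differed by -0.48 with SMARCB1 and by -0.01 with GFP, a difference of -0.47 (edgeR interaction test, adjusted p = 0.0158). NEDD1 had 35.7 and 39.1 CPM in SMARCB1 Dox, 51.8 and 54.1 in SMARCB1 DMSO, 59 and 53.2 in GFP Dox and 56.3 and 55.4 in GFP DMSO. The difference of its Dox effects was -0.51 (edgeR interaction test, adjusted p = 0.0159). Both genes were lowest in the SMARCB1 Dox libraries, and SKA3 was also highest in the SMARCB1 DMSO libraries. Neither difference was called with library totals in place of TMM (adjusted p = 0.0693 and 0.0636) or without GFP Dox replicate 1 (0.145 and 0.134), GFP DMSO replicate 2 (0.103 and 0.0842) or SMARCB1 Dox replicate 1 (0.057 and 0.0864), and NEDD1 was also lost without GFP DMSO replicate 1 (0.0561).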

How the results depend on the processing

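No called value of a member changed sign under the alternatives run. In the SMARCB1 line 525 of the values of single members under an alternative kept their side of the threshold and 3 lost it, and in the GFP line 528 kept it. For the difference between the Dox effects 656 kept it and 4 gained it, and between the lines 498 kept it, 19 lost it and 11 gained it. With library totals the member median was 0.14 for the SMARCB1 Dox effect (0.088 over all genes) and -0.11 between the lines. Without an expression filter 1 gene was called in the GFP line. Leaving out 1 library at a time gave 1 to 3 called members and 1284 to 2009 called genes for the SMARCB1 Dox effect, with a member median of -0.06 to 0.10. It gave 0 to 1 members and 390 to 805 genes for the difference, and 6 to 8 members between the lines. The lowest counts came without SMARCB1 DMSO replicate 1 (1 member, PLK1, and 1462 genes) and without SMARCB1 Dox replicate 1 (1284 genes) for the SMARCB1 Dox effect. For the difference, 469 genes were called without SMARCB1 Dox replicate 1, 390 without GFP Dox replicate 1, 430 without GFP Dox replicate 2, 497 without GFP DMSO replicate 1 and 414 without GFP DMSO replicate 2. Between the lines, 6 members were called without SMARCB1 DMSO replicate 1 or either GFP DMSO library. Fewer libraries entered these fits, and between the lines each of them also called fewer of all genes than the main fit. The cause of the other shifts was not tested. Where this left a group with 1 library, that library was assumed to vary like the other groups. For the difference between the Dox effects, a fit of only the libraries compared was not run, since it uses all 8.

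Groups shared replicate numbers, but correlations of the deviations of same-numbered libraries were 0.0309 to 0.148 and only that of SMARCB1 Dox with SMARCB1 DMSO exceeded 0.1 over all genes tested, so the numbers were not taken to pair the samples. Over the 44 members alone these correlations were 0.0583 to 0.397, and 5 of 6 exceeded 0.1. With the replicate block 3 members and 1282 genes were called for the difference between the Dox effects. The edgeR adjusted p of these members was 0.0227 for PLK1, 0.0449 for CDC25B and 0.0291 for ASPM. The block fit called 3 members and 3149 genes for the SMARCB1 Dox effect, and 15 members and 5977 genes between the lines. The 2 libraries per group limit all of these values.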

Other observations

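Ratios of counts within a library do not depend on how libraries were scaled. Gene pairs for these ratios were chosen after their values were seen, so they are given as a description. CCNB2 stood at 0.279 to 0.328 counts per count of CCNB1 in the 4 libraries of the SMARCB1 line and at 0.209 to 0.223 in the GFP line. For ANLN and ECT2, both needed for cytokinesis, the ratio was 1.11 to 1.25 in the SMARCB1 line and 1.6 to 1.76 in the GFP line. The ratio of DLGAP5 to TPX2 was 0.169 to 0.225 in the SMARCB1 line and 0.144 to 0.151 in the GFP line, and that of CENPA to CENPE was 0.225 to 0.33 and 0.158 to 0.19. These 4 ratios did not overlap between the lines. SPC25 to NDC80 ran from 0.232 to 0.293 in the SMARCB1 line and from 0.164 to 0.241 in the GFP line, which overlapped through GFP DMSO replicate 1.

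Among the further mitosis genes that differed between the lines without Dox, CENPU (log2 0.68) and HJURP, the chaperone that places CENPA at centromeres (0.58), were higher in the SMARCB1 line, as CENPA was. CKS2, a small partner of CDK1 (-0.84), CLASP2, which stabilises microtubules (-0.51), and CEP55, which acts in abscission (-0.47), were lower. These genes were chosen after their values were seen, and all passed edgeR's test.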
